A study of Rattus norvegicus with 6 samples.

Results

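The genes described here are 47 interferon-stimulated genes, nucleic acid sensors, interferon receptors and IRF or STAT transcription factors, measured in rat brain after subarachnoid hemorrhage (SAH, bleeding into the space around the brain). They were taken as the rows of the count table whose symbol equals a listed name, from a list drawn up with earlier results of these data known, and all 47 of the 47 names were found among the 22396 genes of the table. RNA came from the basal temporal lobe of adult male Sprague-Dawley rats, with 1 library per rat. The SAH + 6-gingerol group held 3 rats given 10 mg/kg of 6-gingerol, a phenol of ginger, by the intraperitoneal route at 1 h post-SAH, and the SAH + PBS group held 3 rats given phosphate-buffered saline. All 6 rats carried the hemorrhage, made by injecting femoral blood into the cisterna magna, and all were sampled at 24 h post-SAH. No sham library was among the 6, and the level of these genes in an uninjured brain is therefore not given.

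Interferons are secreted proteins that cells release on sensing foreign or misplaced nucleic acid. Type I interferons bind a receptor made of IFNAR1 and IFNAR2, and interferon gamma binds a receptor made of IFNGR1 and IFNGR2. The receptors activate JAK kinases and STAT factors. Complexes that hold STAT2 and IRF9 bind an element called the ISRE, whereas paired STAT factors bind an element called GAS, and genes with these elements encode sensors, antiviral effectors and the ISG15 modifier. In the brain, microglia, astrocytes, vessel cells and neurons can all mount this response.

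The depth of the libraries was even, with total counts from 62762808 to 66761380 in SAH + 6-gingerol rats and from 64053899 to 65606360 in SAH + PBS rats. SAH + PBS replicate 2 stood apart, since 21.8% of its tested genes were over 2-fold away from the average of its group mates, against 6.31% to 13.03% in the other libraries, so values without it are given below. Microglial markers (8 of 8 tested, P2ry12 and Tmem119 first) summed to between 327 and 339 CPM with 6-gingerol and between 315 and 342 CPM with PBS (2 markers were lower and 3 higher in each treated rat), where CPM is a library-scaled count after TMM normalization. Markers of blood-borne and border macrophages (7 of 7 in the table tested) summed to 79.6 to 91.4 CPM with 6-gingerol, and to 83.9, 439 and 119 CPM in SAH + PBS replicates 1 to 3. Neutrophil markers (3 of 8 in the table tested) summed to 3.66 to 4.89 CPM with 6-gingerol and to 5.58, 50.2 and 9.20 CPM with PBS, with S100a8 at 0 in SAH + 6-gingerol replicate 1. The T and NK cell markers (2 of 9 tested) summed to at most 0.699 CPM in every library but SAH + PBS replicate 2, at 5.401 CPM, and Cd3e was at 0 in all 3 SAH + PBS rats. Astrocyte markers (8 of 8 tested) summed to 2402 to 2861 CPM with 6-gingerol and 4054 to 5953 CPM with PBS, but 6 of the 8 had a positive log2 fold change and Gfap, singled out after its values were seen, carried the sum. Without Gfap the astrocyte sums overlapped, at 2088 to 2322 CPM with 6-gingerol and 1547 to 2250 CPM with PBS. The sums of neuronal markers (8 of 8 tested), which include Rbfox3 and Snap25, were 7213 to 7568 CPM with 6-gingerol and 3479 to 5681 CPM with PBS. Choroid plexus markers (7 of 8 tested), which are led by Ttr, summed to 11.7 to 16.5 CPM with 6-gingerol and to 1157, 41.5 and 340 CPM with PBS. The part of these cell type differences in the interferon gene values was not tested.

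Interferon genes were mostly lower in the treated rats, and the antiviral effectors and the ISG15 system stood lowest. Of the 47 genes, 45 had a negative log2 fold change (SAH + 6-gingerol over SAH + PBS), whereas 53.1% of the 17096 genes tested did. In 34 genes each SAH + 6-gingerol rat was below each SAH + PBS rat, against 13.4% of all tested genes, and in none was each above, against 13.8% of all tested genes. The summed level of the 47 genes was 811, 666 and 622 CPM in SAH + 6-gingerol rats, against 1062, 1485 and 886 CPM in SAH + PBS rats, so the groups did not overlap. The median log2 fold change was -0.90 over the 47 genes and -0.0284 over all tested genes. Scaling by library totals in place of TMM moved the median of all tested genes to -0.148 and that of the 47 genes to -1.02, with 47 of the 47 negative. All 47 genes passed the filter on low counts, none was at 0 in any library, and the smallest count was 12 reads, for Zbp1 in SAH + 6-gingerol replicate 2. The RNA came from whole tissue, so fewer cells of a type and less RNA per cell cannot be told apart.

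No single gene of the 47 passed the main test. The adjusted p of edgeR's quasi-likelihood test, with Benjamini-Hochberg adjustment over all tested genes, ran from 0.327 for Isg15 to 0.910 for Cmpk2, and 0.0175% of all tested genes had one under 0.05. At an unadjusted p under 0.05, which 34 of the 47 genes and 13.9% of all tested genes had, together with a change of over 2-fold, 19 of the 47 genes were lower and 0 were higher. These limits were met by 4.69% of all tested genes in the lower direction and by 0.731% in the higher direction. DESeq2, the test named in the study's methods, called 19 of the 47 genes lower and 0 higher at an adjusted p under 0.05, against 2.82% of its tested genes called lower. A single value compared by an exact permutation test of 3 against 3 rats cannot go below a two-sided p of 0.1. Without SAH + PBS replicate 2, 45 of the 47 genes had a negative log2 fold change, the median was -0.76, 13 were lower at the unadjusted limits (2.43% of all tested genes), and edgeR called 1 of them, Ifitm3 (log2 fold change -1.69, edgeR adjusted p = 0.0352), against 0.357% of all tested genes called lower.

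**Figure D1:**
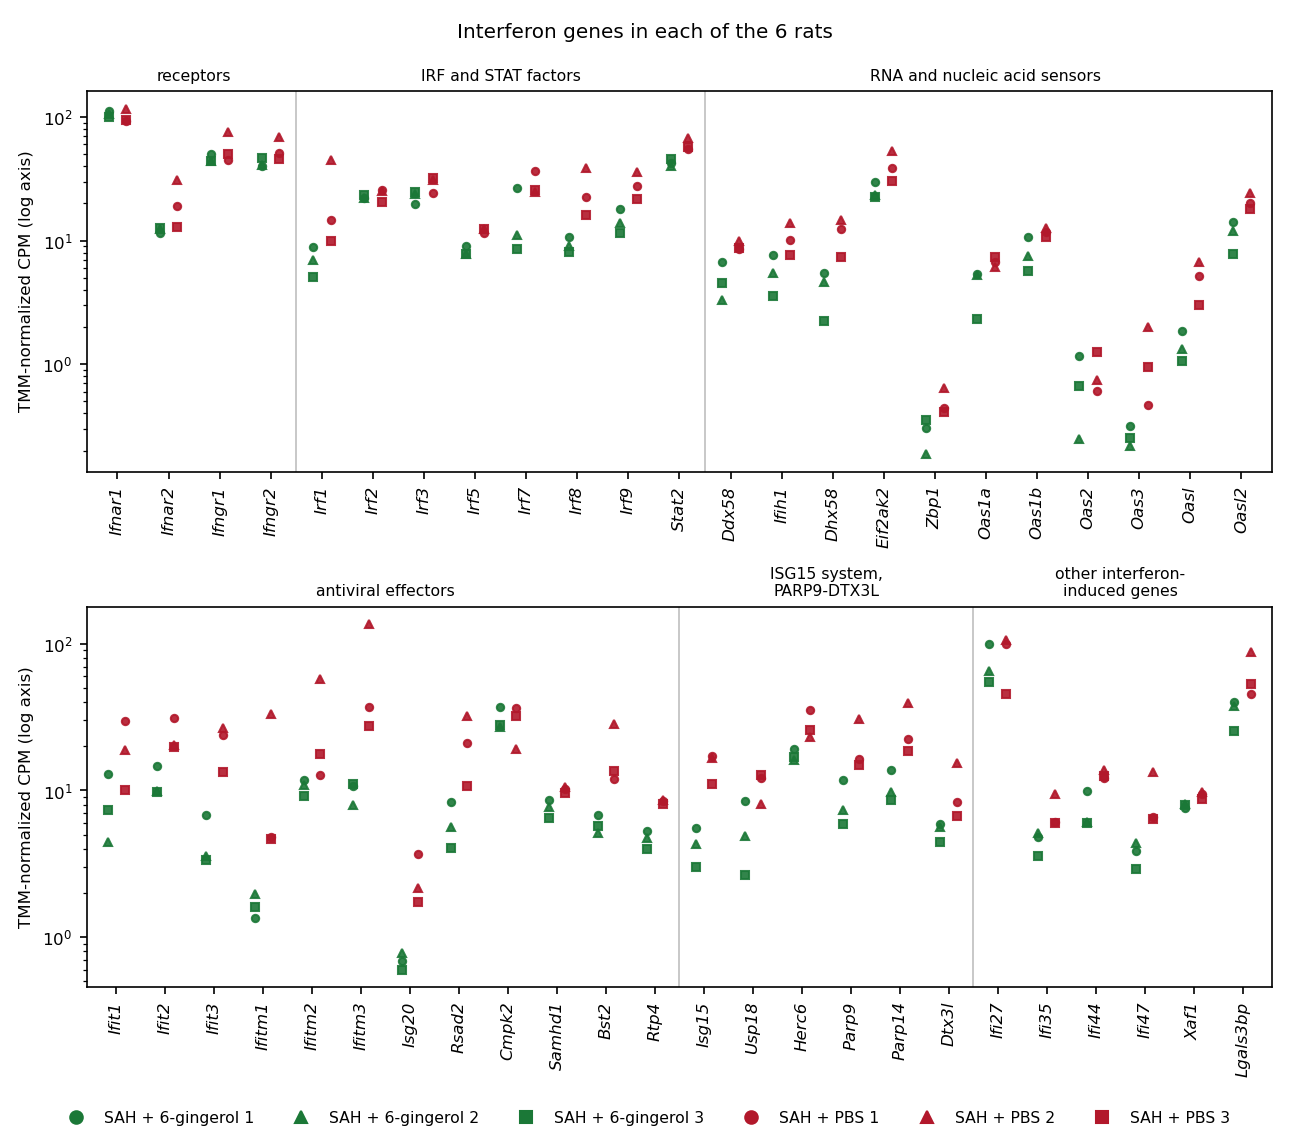
Each of the 47 genes in each of the 6 rats, as TMM-normalized CPM on a log axis, grouped by role; green points are the 3 SAH + 6-gingerol rats, red points the 3 SAH + PBS rats, and the marker shape gives the replicate number. In 34 genes all green points lie below all red points, and the red triangle, SAH + PBS replicate 2, is the highest point in 34 genes.

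Sequences around the start of some of these genes hold the letters of the ISRE or GAS elements. Promoter windows of 300 bases (250 before to 50 after the start) from RefSeq, build GRCr8, were found for 36 of the 47 genes. The deposited tables use the older build Rnor_6.0. An ISRE match was counted where GAAANNGAAA occurred on either strand and a GAS match where TTCNNNGAA occurred, and overlapping matches were counted apart. The ISRE letters were present in 19 of the 36 windows (52.8%), against 3.92% of 33469 windows of the same length. The GAS letters were present in 11 of the 36, against 8.87%. The 19 include Isg20, Irf7 and Oas3, whose window start lies inside the annotated gene span, so these windows may not be their promoters. The sites printed here come from genes described with values in every rat, and the motif is in capitals. The first group holds ISRE matches of an IFIT, an IFITM, viperin (Rsad2), tetherin (Bst2) and Parp14, whose levels were lower in each treated rat, and of Ifi27, whose levels overlapped between the groups.
Ifit3 (chr1:241527267-241527306, plus strand): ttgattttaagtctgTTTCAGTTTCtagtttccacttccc
Ifitm3 (chr1:205541778-205541817, minus strand): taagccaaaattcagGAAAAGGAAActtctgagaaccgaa
Rsad2 (chr6:48788243-48788282, minus strand): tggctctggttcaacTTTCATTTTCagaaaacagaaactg
Bst2 (chr16:18255074-18255113, minus strand): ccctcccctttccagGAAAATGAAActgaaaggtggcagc
Parp14 (chr11:78408043-78408082, plus strand): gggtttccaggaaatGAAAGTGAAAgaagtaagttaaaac
Ifi27 (chr6:128355213-128355252, plus strand): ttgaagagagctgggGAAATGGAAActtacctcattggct
The 11 genes with a GAS match had log2 fold changes from -2.75 (Ifitm3) to -0.42 (Samhd1), and were not compared with the genes without one. The second group holds GAS matches of the transcription factor genes Irf1 and Irf8, which had the lowest log2 fold changes of the factors.
Irf1 (chr10:38417778-38417816, plus strand): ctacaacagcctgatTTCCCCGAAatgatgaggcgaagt
Irf8 (chr19:65699089-65699127, plus strand): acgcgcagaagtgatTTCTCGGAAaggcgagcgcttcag

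The share of windows with the ISRE letters differed between the roles. They occurred in 0 of 4 receptor windows, 1 of 7 factor windows, 6 of 7 sensor windows and 6 of 8 effector windows. Of the ISG15 system 2 of 4 windows held them, and of the other interferon-induced genes 4 of 6. The factor window was that of Irf7, and the sensor and effector counts include the uncertain windows of Oas3 and Isg20. The 19 genes with a match had a median log2 fold change of -0.93 (range -2.75 to -0.20), and the 17 without had a median of -0.67 (range -1.81 to 0.06). The ranges overlapped widely, and the letters of a match do not show that a factor bound there. Ifi27 held 2 ISRE matches and had a log2 fold change of -0.20, whereas Oasl, at -1.81, had none in its window.

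The receptors differed least between the groups. Of the 4 receptor genes, 1 was lower in each treated rat than in each vehicle-treated rat, against 13.4% of all tested genes. None met the limits of 2-fold and unadjusted p, against 4.69% of all tested genes in the lower direction. Their median log2 fold change was -0.33, or -0.11 without SAH + PBS replicate 2. Ifnar1, the chain of the type I receptor that binds TYK2, had 112, 105 and 99.4 CPM in SAH + 6-gingerol rats, against 93.5, 117 and 94.9 CPM in SAH + PBS rats. The groups overlapped, and the log2 fold change was 0.05 ± 0.12 (SE, edgeR adjusted p = 0.830), or -0.07 when scaled by library totals. Ifnar2, the chain that binds JAK1 and interferon with the higher affinity, had 11.5, 12.5 and 12.6 CPM with 6-gingerol, against 19.1, 30.9 and 12.8 CPM with PBS. Its log2 fold change was -0.78 ± 0.31 (edgeR adjusted p = 0.357), and -0.39 without SAH + PBS replicate 2. The treated rats sat just under the lowest vehicle-treated rat.

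The count ratio of Ifnar2 to Ifnar1 within a library, which needs no scaling between libraries and was chosen after the values were seen, was 0.102, 0.118 and 0.126 with 6-gingerol, against 0.204, 0.264 and 0.135 with PBS. The ratios did not overlap either. Ifngr1, the ligand-binding chain for interferon gamma, had 50.2, 43.9 and 43.7 CPM with 6-gingerol, against 45.0, 75.1 and 49.7 CPM with PBS. Ifngr2, its signaling partner that recruits JAK2, had 40.3, 41.2 and 46.8 CPM with 6-gingerol, against 51.0, 68.4 and 45.4 CPM with PBS. For both chains of this receptor the groups overlapped, SAH + PBS replicate 2 was the highest rat, and the log2 fold changes of -0.30 and -0.36 lay at -0.04 and -0.17 without it.

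Among the transcription factors, Irf1 and Irf8 had the lowest log2 fold changes, and Irf2 and Irf3 the ones nearest to 0. Of the 8 genes, 5 were lower in each treated rat, against 13.4% of all tested genes. The limits of 2-fold and unadjusted p were met by 2, Irf1 and Irf8 (1 without SAH + PBS replicate 2). In the lower direction 4.69% of all tested genes met them (2.43% without SAH + PBS replicate 2). The median log2 fold change was -0.73, or -0.66 without SAH + PBS replicate 2. DESeq2 called 4 of the 8 lower, against 2.82% of its tested genes. Irf1, an interferon-induced factor that activates many interferon genes, had 8.84, 6.93 and 5.03 CPM in SAH + 6-gingerol rats, against 14.7, 44.7 and 9.98 CPM in SAH + PBS rats. All treated rats were below all vehicle-treated rats. The log2 fold change was -1.74 ± 0.58 (edgeR adjusted p = 0.347), and -0.83 without SAH + PBS replicate 2. Irf8, a factor of microglia and other myeloid cells, had 10.7, 9.01 and 8.09 CPM with 6-gingerol, against 22.4, 38.3 and 16.2 CPM with PBS. The groups were apart, at a log2 fold change of -1.47 ± 0.33 (edgeR adjusted p = 0.334), and -1.06 without SAH + PBS replicate 2. The summed microglial markers overlapped between the groups with members differing in both directions, the summed macrophage markers were highest in SAH + PBS replicate 2, and their part in the values of Irf8 was not tested.

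Irf9 and Stat2 encode partners in the complex that binds the ISRE. Irf9 had 18.1, 13.9 and 11.6 CPM with 6-gingerol, against 27.5, 35.9 and 21.7 CPM with PBS. Stat2 had 42.0, 40.3 and 46.1 CPM with 6-gingerol, against 54.8, 67.9 and 57.5 CPM with PBS. In both genes each treated rat was below each vehicle-treated rat, with log2 fold changes of -0.97 ± 0.25 and -0.49 ± 0.12 (edgeR adjusted p = 0.340 for each). Irf5, which acts downstream of Toll-like receptors in myeloid cells, had 8.98, 7.72 and 7.75 CPM with 6-gingerol, against 11.6, 12.3 and 12.3 CPM with PBS. Here the replicates were close within each group, and the log2 fold change was -0.57 ± 0.15 (edgeR adjusted p = 0.343), or -0.55 without SAH + PBS replicate 2.

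Irf7, the factor that amplifies type I interferon output, had 26.8, 11.1 and 8.57 CPM with 6-gingerol, against 36.4, 24.6 and 25.8 CPM with PBS. SAH + 6-gingerol replicate 1 lay inside the range of the vehicle-treated rats, and the log2 fold change was -0.90 ± 0.44 (edgeR adjusted p = 0.388). Irf3, the factor phosphorylated by TBK1 after nucleic acid sensing, had 19.7, 23.6 and 24.7 CPM with 6-gingerol, against 24.1, 31.1 and 31.8 CPM with PBS. Irf2, a repressor of interferon targets, had 22.0, 22.1 and 23.4 CPM with 6-gingerol, against 25.5, 24.99 and 20.5 CPM with PBS. The groups overlapped for Irf3 and Irf2, whose log2 fold changes were -0.36 ± 0.16 and -0.07 ± 0.13. Irf3, Irf5 and Irf7 overlap a gene on the opposite strand by 865, 521 and 65 bp (Bcl2l12, Tnpo3 and Phrf1), and since the strand setting is not given, reads from the shared bases cannot be assigned to either.

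**Figure D2:**
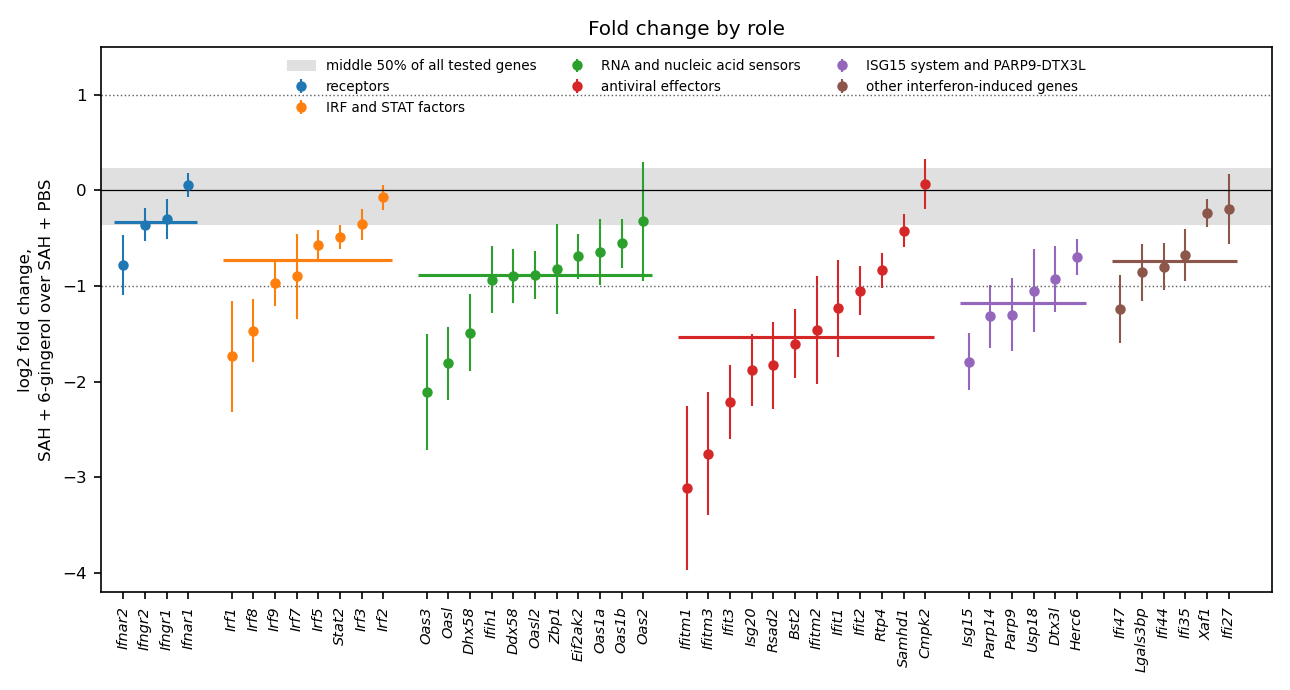
The log2 fold change of each gene (points, SAH + 6-gingerol over SAH + PBS, with bars of 1 SE from edgeR), ordered within its role, with the median of each role as a horizontal line, the middle 50% of all tested genes as the gray band and 2-fold as dotted lines. The medians run from -0.33 for the receptors to -1.53 for the antiviral effectors, and Ifnar1 and Cmpk2 are the points above 0, at 0.05 and 0.06 (-0.07 and -0.05 when scaled by library totals).

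The sensors of viral RNA were lower as well, with Oas3, Oasl and Dhx58 at the lowest log2 fold changes. Of the 11 genes, 11 had a negative log2 fold change, against 53.1% of all tested genes, and 8 were lower in each treated rat, against 13.4%. The limits of 2-fold and unadjusted p were met by 3 (Dhx58, Oas3 and Oasl), against 4.69% of all tested genes in the lower direction. The median log2 fold change was -0.88, or -0.71 without SAH + PBS replicate 2. Oasl, an OAS-like protein that binds RNA-sensing complexes, had 1.84, 1.32 and 1.07 CPM in SAH + 6-gingerol rats, against 5.15, 6.72 and 2.9998 CPM in SAH + PBS rats. Its log2 fold change was -1.81 ± 0.38 (edgeR adjusted p = 0.334). Dhx58, which encodes LGP2, the regulator of the RIG-I-like helicases, had 5.44, 4.63 and 2.24 CPM with 6-gingerol, against 12.3, 14.8 and 7.41 CPM with PBS. In both genes the highest treated rat was below the lowest vehicle-treated rat, and Dhx58 had a log2 fold change of -1.49 ± 0.41 (edgeR adjusted p = 0.343).

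The helicases that sense RNA directly had log2 fold changes nearer to 0 than that of Dhx58. Ddx58, which encodes RIG-I, the sensor of short RNA with a triphosphate end, had 6.71, 3.31 and 4.56 CPM with 6-gingerol, against 8.55, 9.89 and 8.74 CPM with PBS. Ifih1, which encodes MDA5, the sensor of long double-stranded RNA, had 7.58, 5.42 and 3.53 CPM with 6-gingerol, against 10.1, 13.9 and 7.58 CPM with PBS. The rats did not overlap for Ddx58, whereas for Ifih1 the highest treated rat met the lowest vehicle-treated rat. Their log2 fold changes were -0.90 ± 0.28 and -0.93 ± 0.35 (edgeR adjusted p = 0.347 and 0.349). Eif2ak2, which encodes PKR, the kinase that halts translation on binding double-stranded RNA, had 29.6, 23.2 and 22.6 CPM with 6-gingerol, against 38.6, 53.0 and 30.1 CPM with PBS. SAH + 6-gingerol replicate 1 was just under SAH + PBS replicate 3, at a log2 fold change of -0.69 ± 0.23 (edgeR adjusted p = 0.347).

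The OAS enzymes make the oligoadenylates that switch on RNase L. Oasl2 had 14.2, 11.9 and 7.79 CPM with 6-gingerol, against 20.2, 24.3 and 18.1 CPM with PBS, with no overlap and a log2 fold change of -0.88 ± 0.25 (edgeR adjusted p = 0.347). Oas3 had 0.318, 0.217 and 0.251 CPM with 6-gingerol, against 0.471, 2.004 and 0.939 CPM with PBS. It was a low gene whose fold change, -2.11 ± 0.61 (edgeR adjusted p = 0.347), shrank to -1.42 without SAH + PBS replicate 2. Oas1b had 10.8, 7.52 and 5.65 CPM with 6-gingerol, against 11.7, 12.7 and 10.7 CPM with PBS, and the groups overlapped at SAH + 6-gingerol replicate 1. Oas1b shares 8939 bp with Oas1e on the other strand, so its reads are uncertain in the same way. Oas1a, Oas2 and Zbp1, a sensor of Z-form nucleic acid that feeds necroptosis, had log2 fold changes of -0.64, -0.32 and -0.82, and Oas2 overlapped between the groups.

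The antiviral effectors held the lowest values of all roles. Of the 12 genes, 11 had a negative log2 fold change, 10 were lower in each treated rat and 9 met the limits of 2-fold and unadjusted p. The shares over all tested genes were 53.1%, 13.4% and, in the lower direction, 4.69%. The median log2 fold change was -1.53, or -1.20 without SAH + PBS replicate 2. DESeq2 called 8 of the 12 lower, against 2.82% of its tested genes. The difference between the roles was not tested, since the genes of a role are not replicates. Ifit3, one of the IFIT proteins that bind viral RNA and its partners, had 6.80, 3.603 and 3.36 CPM in SAH + 6-gingerol rats, against 23.8, 26.9 and 13.3 CPM in SAH + PBS rats. The highest treated rat was well under the lowest vehicle-treated rat, and the log2 fold change was -2.22 ± 0.39 (edgeR adjusted p = 0.334), or -2.01 without SAH + PBS replicate 2. Ifit2, its heterodimer partner, had 14.8, 9.99 and 9.79 CPM with 6-gingerol, against 31.2, 20.5 and 19.7 CPM with PBS. These groups did not overlap, at a log2 fold change of -1.05 ± 0.26 (edgeR adjusted p = 0.338).

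The IFITM proteins sit in endosomal and plasma membranes and hinder viral entry. Ifitm3 had 10.8, 7.91 and 11.1 CPM with 6-gingerol, against 36.9, 137 and 27.3 CPM with PBS. Ifitm1 had 1.35, 1.96 and 1.604 CPM with 6-gingerol, against 4.78, 33.3 and 4.67 CPM with PBS. Both were lower in each treated rat than in each vehicle-treated rat. SAH + PBS replicate 2 stood far above the other vehicle-treated rats, at 4.25 times their mean for Ifitm3 and 7.04 times for Ifitm1. The log2 fold changes were -2.75 ± 0.64 and -3.12 ± 0.86 (edgeR adjusted p = 0.338 and 0.343). Without that rat they were -1.69 and -1.53 (edgeR adjusted p = 0.0352 and 0.0684). Ifitm2 had the same rat at 3.77 times the mean of the others, and its log2 fold change of -1.46 lay at -0.52 without it. The summed macrophage and the summed neutrophil markers were highest in that rat too, though not every marker was, and their part in these values was not tested.

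Isg20, a nuclease that degrades single-stranded RNA, went the other way within the vehicle-treated group. It had 0.683, 0.777 and 0.602 CPM with 6-gingerol, against 3.69, 2.18 and 1.74 CPM with PBS. The groups were far apart relative to the spread among treated rats, and the log2 fold change was -1.88 ± 0.38 (edgeR adjusted p = 0.334), and -1.98 without SAH + PBS replicate 2. Bst2, which encodes tetherin, the protein that holds budding virions at the cell surface, had 6.85, 5.11 and 5.73 CPM with 6-gingerol, against 11.9, 28.4 and 13.5 CPM with PBS. Its log2 fold change was -1.60 ± 0.36 (edgeR adjusted p = 0.334), or -1.11 without SAH + PBS replicate 2. Rtp4, a chaperone of membrane receptors that interferon induces, had 5.31, 4.77 and 4.01 CPM with 6-gingerol, against 8.50, 8.59 and 8.08 CPM with PBS. The vehicle-treated rats were nearly equal for Rtp4, and the log2 fold change of -0.84 ± 0.18 (edgeR adjusted p = 0.334) was -0.82 without SAH + PBS replicate 2. Samhd1, a dNTPase, was also lower in each treated rat (log2 fold change -0.42).

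Rsad2 and Cmpk2 parted, although they lie side by side. Rsad2 encodes viperin, a radical SAM enzyme that converts CTP to a chain terminator of viral RNA synthesis, and Cmpk2 encodes a mitochondrial nucleotide kinase that supplies CTP. On Rnor_6.0 Rsad2 spans chr6:45655954-45669148 on the minus strand and Cmpk2 spans chr6:45683234-45694822 on the plus strand, with 14086 bp and 0 other genes between. Rsad2 had 8.33, 5.61 and 4.08 CPM with 6-gingerol, against 21.0, 32.3 and 10.8 CPM with PBS. The groups did not overlap (log2 fold change -1.83 ± 0.45, edgeR adjusted p = 0.338). Cmpk2 had 37.0, 27.2 and 27.7 CPM with 6-gingerol, against 36.5, 19.3 and 32.2 CPM with PBS, at a log2 fold change of 0.06 ± 0.26 (edgeR adjusted p = 0.910), or -0.05 when scaled by library totals. Here SAH + PBS replicate 2 was the lowest of the 6 rats. The ratio of Rsad2 to Cmpk2 counts within each library, chosen after the values were seen, was 0.225, 0.206 and 0.147 with 6-gingerol, against 0.575, 1.67 and 0.334 with PBS, with no overlap. In mean FPKM, which takes gene length into account, Rsad2 stood at 1.57 with 6-gingerol and 6.13 with PBS, and Cmpk2 at 7.66 with 6-gingerol and 7.92 with PBS.

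ISG15 is a ubiquitin-like protein that is joined to other proteins, and all 6 genes of its system and of the PARP9-DTX3L complex had a negative log2 fold change. Of these, 5 were lower in each treated rat and 4 met the limits of 2-fold and unadjusted p, with a median of -1.17. Among all tested genes 53.1% were negative, 13.4% were lower in each treated rat and 4.69% met the limits in the lower direction. Without SAH + PBS replicate 2, 2 met the limits, against 2.43% of all tested genes in the lower direction, and the median was -0.92. Isg15 had 5.53, 4.35 and 2.99 CPM in SAH + 6-gingerol rats, against 17.1, 16.6 and 10.999 CPM in SAH + PBS rats. The highest treated rat was well under the lowest vehicle-treated rat, and the log2 fold change was -1.79 ± 0.30 with the smallest adjusted p of the 47 genes (edgeR adjusted p = 0.327), or -1.71 without SAH + PBS replicate 2. Usp18, the protease that removes ISG15 and damps IFNAR2 signaling, had 8.47, 4.92 and 2.64 CPM with 6-gingerol, against 12.3, 8.13 and 12.8 CPM with PBS. The groups overlapped, since SAH + 6-gingerol replicate 1 exceeded SAH + PBS replicate 2. Herc6, the main ISG15 ligase in the mouse, had 19.2, 16.1 and 16.8 CPM with 6-gingerol, against 35.4, 23.1 and 26.0 CPM with PBS. It did not overlap, at a log2 fold change of -0.70 ± 0.19 (edgeR adjusted p = 0.343), while that of Usp18 was -1.05 ± 0.43 (edgeR adjusted p = 0.358).

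PARP9 and DTX3L form an ADP-ribosyltransferase and ubiquitin ligase pair, and PARP14 is a related enzyme. Parp9 had 11.8, 7.35 and 5.90 CPM with 6-gingerol, against 16.3, 30.7 and 14.8 CPM with PBS. Dtx3l had 5.94, 5.65 and 4.46 CPM with 6-gingerol, against 8.37, 15.4 and 6.70 CPM with PBS. Parp14 had 13.8, 9.82 and 8.61 CPM with 6-gingerol, against 22.5, 39.2 and 18.6 CPM with PBS. All 3 genes were lower in each treated rat and highest in SAH + PBS replicate 2. Their log2 fold changes were -1.30 ± 0.38, -0.93 ± 0.34 and -1.32 ± 0.33 (edgeR adjusted p = 0.347, 0.349 and 0.338), and -0.89, -0.49 and -0.94 without that rat.

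The 6 other interferon-induced genes all had a negative log2 fold change, from -1.24 to -0.20, against 53.1% of all tested genes. Of the 6, 5 were lower in each treated rat, against 13.4% of all tested genes. Only 1, Ifi47, met the limits, against 4.69% of all tested genes in the lower direction, and the median log2 fold change was -0.74. Without SAH + PBS replicate 2, 0 met the limits, against 2.43% of all tested genes in the lower direction, and the median was -0.47. Ifi47, an interferon-gamma-induced GTPase, had 3.85, 4.38 and 2.92 CPM with 6-gingerol, against 6.59, 13.3 and 6.41 CPM with PBS. Ifi44, an interferon-induced cytoplasmic protein, had 9.98, 6.10 and 5.97 CPM with 6-gingerol, against 12.1, 13.7 and 12.5 CPM with PBS. The groups were apart for both genes, whose log2 fold changes were -1.24 ± 0.35 and -0.80 ± 0.24 (edgeR adjusted p = 0.347 for each). Lgals3bp, a secreted glycoprotein that binds galectins, had 40.0, 37.8 and 25.4 CPM with 6-gingerol, against 45.4, 88.1 and 53.6 CPM with PBS. Ifi35, a partner of NMI, had 4.85, 5.09 and 3.56 CPM with 6-gingerol, against 6.08, 9.48 and 6.00 CPM with PBS. Neither overlapped. Xaf1, an antagonist of XIAP, had 7.65, 8.09 and 7.91 CPM with 6-gingerol, against 9.46, 9.73 and 8.68 CPM with PBS, a small but separated difference (log2 fold change -0.24 ± 0.15).

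Ifi27 was the most abundant of the 47 genes per length and did not follow them. It encodes a small mitochondrial membrane protein and had 99.5, 65.6 and 55.1 CPM with 6-gingerol, against 99.9, 107 and 45.7 CPM with PBS. SAH + PBS replicate 3 was the lowest of the 6 rats, and the log2 fold change was -0.20 ± 0.36 (edgeR adjusted p = 0.793), or 0.01 without SAH + PBS replicate 2. Its mean FPKM was 88.3 ± 28.0 with 6-gingerol and 110.4 ± 45.8 with PBS (SD, n = 3 each). At the other end was Zbp1, at 0.101 ± 0.030 FPKM with 6-gingerol and 0.196 ± 0.055 FPKM with PBS. Between these ends Ifitm3 averaged 13.6 ± 2.34 FPKM with 6-gingerol and 101 ± 94.2 FPKM with PBS, the largest SD among the 47 genes.

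The rats of each group differed from one another across the genes. SAH + PBS replicate 2 was the highest of all 6 rats in 34 of the 47 genes, against 36.1% of all tested genes. Its level over the mean of SAH + PBS replicates 1 and 3 had a median of 1.45 over the 47 genes and 0.989 over all tested genes, and was over 1.5 in 20 genes. In 9 genes it was under 1: Irf7, Oas1a, Oas2, Ifit1, Ifit2, Isg20, Cmpk2, Usp18 and Herc6. Among the treated rats, SAH + 6-gingerol replicate 1 was the highest in 35 of the 47 genes, against 33.0% of all tested genes, and replicate 3 the lowest in 30, against 33.9%. The median log2 distance of the 47 genes from their mean was -0.19, -0.49 and -0.75 in SAH + 6-gingerol rats and 0.34, 0.76 and 0.19 in SAH + PBS rats, so each treated rat was below each vehicle-treated rat on this scale.

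**Figure D3:**
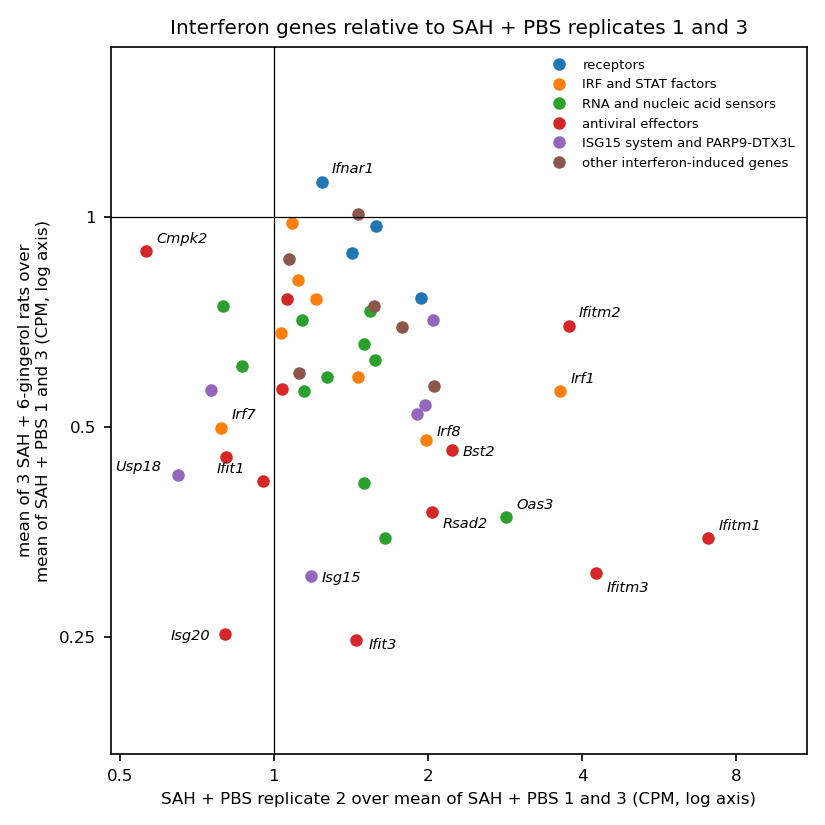
For each of the 47 genes, the mean CPM of the 3 SAH + 6-gingerol rats over that of SAH + PBS replicates 1 and 3 (vertical, log axis) is plotted against SAH + PBS replicate 2 over the same mean (horizontal, log axis), colored by role. Ifitm1, Ifitm3, Ifitm2 and Irf1 lie furthest right, at 7.04, 4.25, 3.77 and 3.63, while Isg20 and Isg15 lie low on the vertical axis with SAH + PBS replicate 2 at 0.801 and 1.18.

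Many of these genes are neighbors. On Rnor_6.0, 21 of the 47 fall in 7 stretches with at most 500 kb between them. The IFITM genes lie at chr1:213750192-213811901 and include the lowest log2 fold changes, with Ifitm1 at -3.12 and Ifitm3 at -2.75. Irf7 lies 436936 bp further on at -0.90. In the IFIT stretch at chr1:252894663-252946170, Ifit3 (-2.22) lies between Ifit2 (-1.05) and Ifit1 (-1.24), and Ifit1 overlapped between the groups. Parp9 and Dtx3l, which are 1129 bp apart and transcribed away from each other on chromosome 11, had -1.30 and -0.93. The receptor stretch on the same chromosome held Ifnar2 (-0.78), Ifnar1 (0.05) and Ifngr2 (-0.36), and on chromosome 12 Oas3 (-2.11) lies 4253 bp from Oas2 (-0.32). Reads of near-identical family members, such as those of the IFITM, IFIT and OAS1 genes, may be split or shared between copies.

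**Figure D4:**
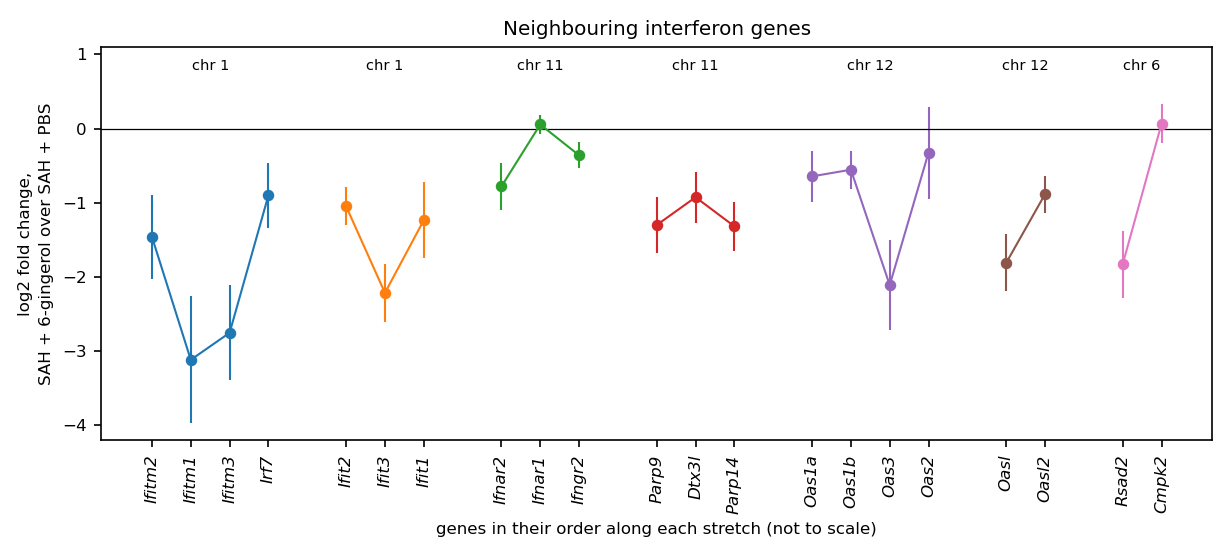
The log2 fold change (SAH + 6-gingerol over SAH + PBS, points with bars of 1 SE from edgeR) of the 21 genes in 7 stretches, in their order along the chromosome and not to scale. Rsad2 at -1.83 and Cmpk2 at 0.06 (-0.05 when scaled by library totals) lie on either side of 0, and all genes of the Parp9, Dtx3l and Parp14 stretch lie below 0.

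Other genes of the pathway, from lists of 75 symbols that include older and newer names of the same gene, mostly had negative values as well. Of the 54 tested, 49 had a negative log2 fold change, against 53.1% of all tested genes, and the median was -0.57. At the limits of 2-fold and unadjusted p, 17 were lower and 0 higher, against 4.69% and 0.731% of all tested genes. Without SAH + PBS replicate 2, 9 were lower at these limits (2.43% of all tested genes) and the median was -0.42. The interferons themselves were barely measured: 5 of 12 listed ligand genes were in the table, all type I genes such as Ifna4, with at most 4 counts in any SAH + 6-gingerol library and 8 in any SAH + PBS library, and none could be tested. Among 12 kinases, factors and feedback inhibitors, 5 were lower at these limits, and 2 without SAH + PBS replicate 2. The kinases Jak1, Jak2 and Tyk2 had log2 fold changes of -0.29, -0.81 and -0.12.

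The feedback inhibitors ranged widely, with Pias1 at a log2 fold change of 0.09 (-0.0056 without SAH + PBS replicate 2) and Socs3 at the lowest value of the lists. Socs3, an inhibitor that STAT3 induces, had 0.874, 0.745 and 0.903 CPM with 6-gingerol, against 17.3, 71.9 and 2.32 CPM with PBS. Ptpn6, which encodes the phosphatase SHP-1, had 7.23, 6.82 and 6.64 CPM with 6-gingerol, against 15.1, 29.0 and 12.5 CPM with PBS. The groups were apart for both, with log2 fold changes of -5.18 ± 1.21 and -1.45 ± 0.33 (edgeR adjusted p = 0.338 and 0.334), and of -3.54 and -1.001 without SAH + PBS replicate 2. Stat3 itself was at -1.57, and at -0.86 without SAH + PBS replicate 2. Of 13 adaptors and other sensors, 3 met the limits: Trim25 (-1.34), the ligase that activates RIG-I, Myd88 (-1.35), the adaptor of Toll-like receptors, and Zc3hav1 (-1.31), an antiviral zinc finger protein. These limits were met in the lower direction by 4.69% of all tested genes. Without SAH + PBS replicate 2, 0 of these 13 met the limits, against 2.43% of all tested genes in the lower direction.

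The 27 other interferon-stimulated genes tested held 24 negative values, against 53.1% of all tested genes. Of the 27, 8 met the limits in the lower direction, against 4.69% of all tested genes. Rnf213, a large ubiquitin ligase, had 33.5, 24.6 and 23.0 CPM with 6-gingerol, against 56.5, 55.1 and 56.8 CPM with PBS. The vehicle-treated rats were nearly equal for it, SAH + PBS replicate 2 included, and the log2 fold change was -1.05 ± 0.16 (edgeR adjusted p = 0.327). Mx1, a dynamin-like GTPase against RNA viruses, had 7.47, 2.90 and 4.31 CPM with 6-gingerol, against 14.9, 23.1 and 11.6 CPM with PBS. It did not overlap either, and its log2 fold change was -1.75 ± 0.42 (edgeR adjusted p = 0.338). Helz2, a nuclear receptor coactivator that interferon induces, and Pml, the scaffold of nuclear bodies, were lower in each treated rat at -1.28 and -0.58. Of the enzymes that attach ISG15, Ube2l6 was at -1.01, or -0.75 without SAH + PBS replicate 2, and Uba7 was at -0.83 and overlapped between the groups.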

How the data were processed

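RNA-seq libraries from 3 SAH + 6-gingerol and 3 SAH + PBS rats, 1 per rat, were grouped by sample title; the table columns call the treated libraries Control. The authors deposited gene counts and FPKM (counts scaled by gene length and library total) on Rnor_6.0. The submitters' processing notes name HISAT2 2.1.0, StringTie 1.3.3b and limma 3.32.10 without roles, whereas STAR and DESeq2 are named in the methods of the paper. Which counter, strand setting and annotation release were used is not given in the sources used here. Counts were tested with edgeR 4.0.16 in R 4.3.3 (filterByExpr with minimum count 10 and total 15, TMM, glmQLFit, glmQLFTest, no block) over 17096 genes with Benjamini-Hochberg adjustment; the fit was tested on simulated data. This test gives no SE, so each SE shown was derived as the absolute log2 fold change over the square root of the test's F statistic. Limits of p under 0.05, taken here as unadjusted, and 2-fold follow the study. Its methods also name a looser limit on the adjusted p of DESeq2 than the 0.05 used here. Alternatives were DESeq2 1.42.0, limma 3.58.1 (voom, and log2 FPKM), other scalings and filters, each rat left out, and a replicate block. Genes, lists and tests were chosen with earlier results of these data known. Values in every rat are given for all receptors and factors, for up to 8 genes of smallest p in each other role, and for genes that go against their role; of other pathway genes, up to 4 of smallest p per list and the JAK kinases, apart from 1 result that is not reported here. Each rat is 1 replicate.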

Additional observations from a re-analysis of the deposited data

How the results depend on the processing

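The count of genes past an adjusted p under 0.05, which was 0 in edgeR, was 19 in DESeq2 and ran from 0 to 1 when each rat was left out. The count lower at an unadjusted p and 2-fold, 19 of 47, ran from 13 to 24 and the median from -1.08 to -0.73 over the same fits. Over the other alternatives that count ran from 14 (limma on log2(FPKM + 1)) to 24 (library totals). Of 742 gene values over 16 alternatives, 14 turned sign, in 4 genes. Ifnar1 was at -0.068 with library totals, at -0.056 with limma on log2(FPKM + 1), with and without its filter, at -0.058 on log2(FPKM + 0.1), and ran from -4.2e-06 (without SAH + PBS replicate 1) to 0.17 (without SAH + PBS replicate 2). Cmpk2 was at -0.049, -0.020 and -0.019 in the same fits, and ran from -0.16 (without SAH + PBS replicate 2) to 0.25 (without SAH + PBS replicate 1), with -0.092 without SAH + 6-gingerol replicate 1. Oas2 ran from -0.92 (without SAH + 6-gingerol replicate 1) to 0.080 (without SAH + 6-gingerol replicate 2), with 0.042 without SAH + PBS replicate 3. Ifi27 ran from -0.49 (without SAH + PBS replicate 3) to 0.012 (without SAH + PBS replicate 2). The cause of these changes was not tested.

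With the replicate number as a block, 0 genes passed the adjusted p, 19 were lower at the unadjusted limits and the median was -0.92. The deviations of same-numbered rats correlated at -0.04, 0.0065 and 0.0091 across genes. The sample titles give them only a number in common, and whether they share anything more is not known. Counting error bears most on the low genes, such as Zbp1, with 12 reads in SAH + 6-gingerol replicate 2.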
